A study of Rattus norvegicus with 2 samples.

Results

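The name rule for cytosolic ribosomal protein genes found 68 of 31042 non-control probe sets, for 56 of 14217 genes, on 2 Affymetrix Rat Genome 230 2.0 arrays of rat lung. A member was a probe set, which is a group of short probes read as 1 value, whose platform annotation gave exactly 1 gene symbol starting with Rpl, Rps or Rplp and then a digit. The arrays held total RNA from lung purified on silica columns and labelled as biotinylated cRNA. Each array was prepared by a different experimenter, numbered as in the array titles, so there was 1 array for experimenter 2 and 1 for experimenter 1. Strain, sex, age, treatment, number of animals and whether both used the same RNA are not stated in the labels. The series asks how reproducible expression values from lung are between experimenters.

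The name of the rule and the genes it found differed in part. Of the 56 genes, 41 (45 probe sets) encode subunits of the ribosome from a list of 79, 29 of the large and 12 of the small subunit, and these 41 are called the ribosomal protein genes from here on. A further 6 genes (7 probe sets) fell in no other group and are called paralogues, most named after a subunit with an added suffix. Another 2 (2 probe sets) are named as pseudogenes. The other 7 genes (14 probe sets) encode protein kinases named after ribosomal protein S6, and these kinases are not part of the ribosome. The 79 subunit names hold 3 that the pattern cannot match, and of the other 76, 27 were listed only in probe sets with several symbols and 8 in no probe set that this annotation names.

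The cytosolic ribosome translates messenger RNA in all cells, and each of its proteins, apart from those of the acidic stalk, is present in a single copy. Cells therefore need its proteins in equal numbers, and their mRNAs are among the most abundant of most tissues, lung included. In mammals these mRNAs typically start with a cytosine followed by a run of pyrimidines, the 5' terminal oligopyrimidine tract, through which the mTOR pathway controls their translation. The S6 kinases act in the same signalling network.

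The annotated starts of the genes with the brightest probe sets, of 3 of the 4 dim ones described below, of *Rpl3* and its paralogue *Rpl3l*, and of an S6 kinase are shown because the tract lies there. Each line gives 20 bases before and 10 after the start in RefSeq's rat genome GRCr8, 5' to 3' on the strand of the gene. Capitals mark the longest run of a C followed by at least 5 bases that are each C or T. The RefSeq promoter table used here gave a window for 34 of the 41 ribosomal protein genes; *Rps29*, *Rpl37a* and *Rpl30* are among those not shown.
Rpl27a (chr1:172974553-172974582, plus strand): cctcgcgagacttggtgggCTCCTCCCTCT
Rps23 (chr2:23814497-23814526, plus strand): ccttgtgggtccttcctgCCTCTCTTCTCT
Rpl26 (chr10:54109672-54109701, plus strand): gagatctcgtgtcaacttacagaaccggaa
Rpl19 (chr10:83519044-83519073, plus strand): gagcccgcgaccagcaagCTCTTTCCTTTC
Rps24 (chr16:96497-96526, plus strand): ggcagtgagcggtCCTCTTTTCCTCCTTTa
Rps3a (chr2:173827033-173827062, minus strand): cgcgcgagttgtacttccgCCCTTTTggct
Rpl39 (chrX:121195887-121195916, minus strand): cagcgtcttctaatcgcgttcttccggcct
Rps13 (chr1:180009651-180009680, minus strand): cctgtgccgtttcctacctcgttCTCTCTT
Rpl28 (chr1:78083523-78083552, minus strand): tgtcgccccgcccctagtgtCTTTCTTTCC
Rpl3 (chr7:113507981-113508010, minus strand): ctgcaccagcgcctgctcgatctctatcgg
Rpl3l (chr10:14258426-14258455, plus strand): catttgacctctggtgcctggtggggaggt
Rps6kb1 (chr10:71865202-71865231, minus strand): atggcggcggcagcagtggagtctgcggcg

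Such a run lay in the window of 26 of the 34 ribosomal protein genes (76.5%), of 1 of 6 paralogues (16.7%) and of 1 of 7 kinase genes (14.3%), against 21.9% of all 33469 promoters. On the opposite strand of the same windows it lay in 3 of the 34 (8.82%), against 24.2% of all promoters. A run was counted anywhere in the window, most of which lies before the annotated start. In some of the 26 genes, such as *Rpl21* and *Rps3*, the run lay wholly before that start. By this annotation such a run is outside the mRNA, so 26 is not a count of mRNAs that start with the tract. Of the ribosomal protein genes shown, *Rpl26*, *Rpl39* and *Rpl3* had no run in this window, which says only that these letters are not next to the annotated start. The letters CCGGAA are found in motifs of ETS factors. They occurred on either strand of the full 300 bases around the start in 12 of the 34 (35.3%), against 15.0% of all promoters. The pattern, the window and this motif were chosen after the sequences had been seen, so these shares are descriptions.

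Signals are log2 RMA values, the summary the authors computed from each probe set's probes, and no replicate array exists for either experimenter. The signal of a probe set depends on its probes as well as on its RNA, so an order of signals is not an order of RNA amounts. In whole lung, more RNA per cell and more cells cannot be told apart. The values of experimenter 2 ran from 2.26 to 14.49 and those of experimenter 1 from 2.31 to 14.51, with medians of 6.28 and 6.32. Lung markers stood near the top of both, such as the surfactant gene *Sftpc* at 14.36 and 14.39, while *Alb* of liver measured 5.04 and 5.41. Markers of other tissues were not all low: *Mbp* of myelin measured 8.51 and 9.11, and *Alas2* of red cell precursors 8.36 and 8.79. Their part in the results below was not tested.

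The ribosomal protein genes fell into a bright set and a few dim ones. By the brightest probe set of each gene, 37 of 41 were among the 310 brightest probe sets of the array, its upper 1%, which starts at a mean of both arrays of 11.97, and they made up 11.9% of it. The other 4 had means under 8. The medians over the 41 genes were 12.98 for experimenter 2 and 12.96 for experimenter 1, against a median of the mean level of 7.58 over all genes. These 37, all with means of 12 or above, are called the bright genes, a division made after the values had been seen.

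*Rps29*, a small zinc-binding protein of the small subunit, had the highest signal of the 41 genes, at 13.999 for experimenter 2 and 14.02 for experimenter 1. *Rpl27a* of the large subunit measured 13.63 and 13.76, and *Rps23*, a protein of the decoding centre, 13.62 and 13.69. Among the next brightest, *Rpl26*, which sits by the exit of the nascent chain, measured 13.60 and 13.64. *Rpl19*, often used as a reference gene, measured 13.43 on both arrays. *Rps24*, a gene mutated in human Diamond-Blackfan anaemia, measured 13.39 and 13.42, *Rps3a* 13.40 and 13.39, and the zinc-binding *Rpl37a* 13.48 and 13.30. The lowest of the 37 were *Rpl21* at 12.10 and 12.02, *Rpl14* at 12.17 and 12.21, *Rpl4* at 12.34 and 12.48 and *Rpl24* at 12.61 and 12.32.

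**Figure D1:**
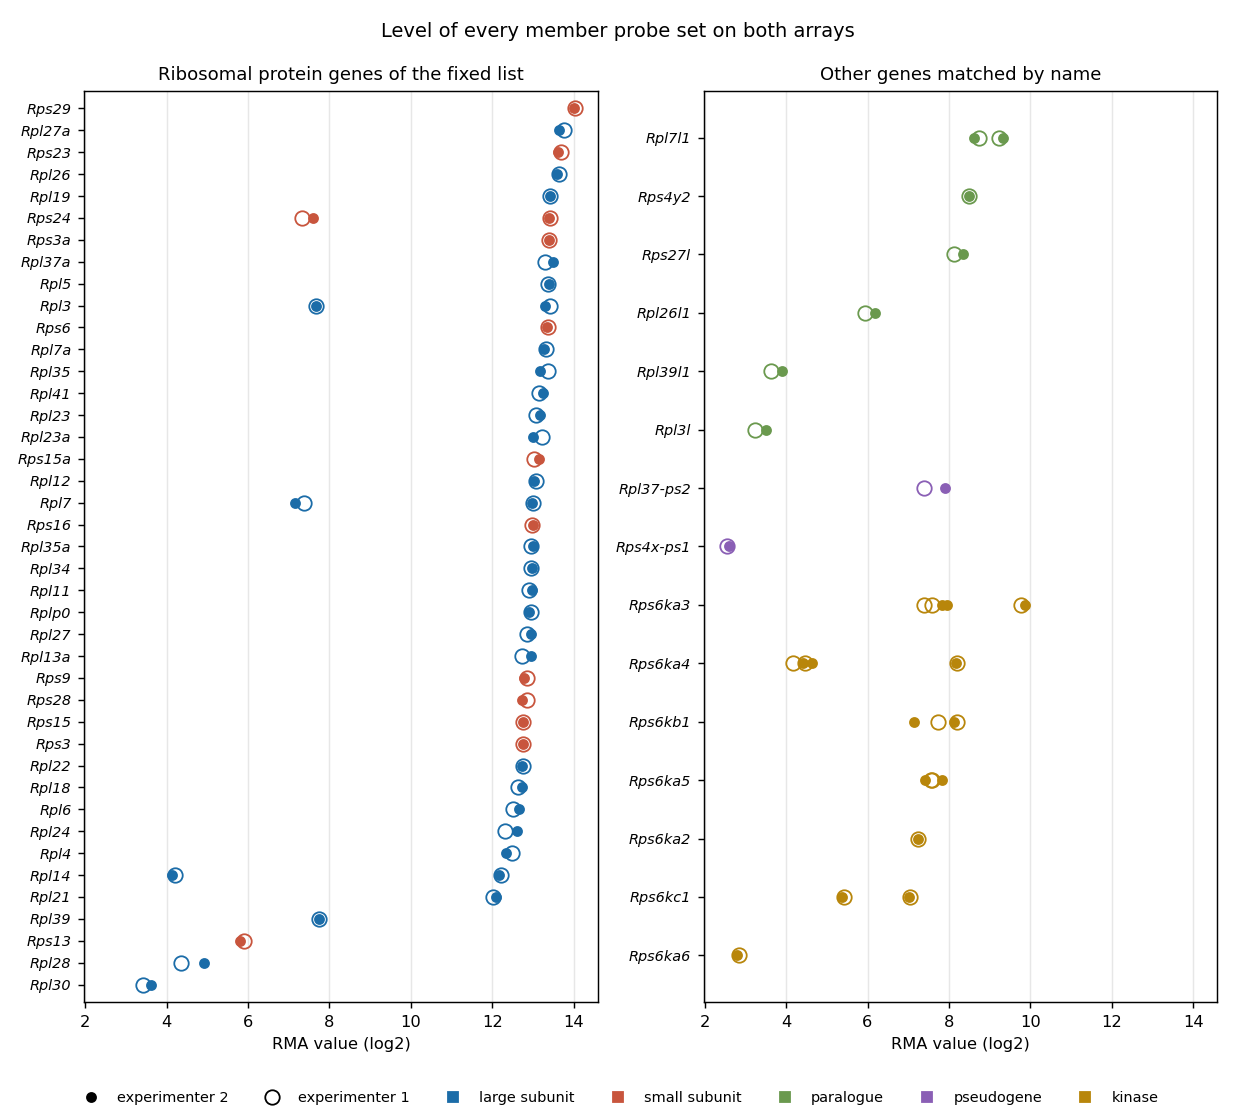
RMA values (log2) of every member probe set, with filled points for experimenter 2 and open circles for experimenter 1, genes of the subunits on the left and the other genes matched by name on the right. Apart from 8 dim probe sets the subunit genes sit between 12.02 and 14.02, and the other matched genes all sit under 10.

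The member genes were also read by functional site. At the stalk that recruits elongation factors, *Rplp0*, its base, measured 12.89 and 12.96, and *Rpl12*, which binds beside it, 13.03 and 13.07. *Rpl5* and *Rpl11*, which travel with 5S ribosomal RNA and bind the p53 regulator Mdm2, measured 13.39 and 13.36, and 12.97 and 12.91. Along the path of the mRNA, 4 genes were members: *Rps23* was the brightest and *Rps3*, at the entry of the mRNA channel, the dimmest at 12.74 on both arrays. Of the 7 member genes at the exit tunnel, 6 had means from 12.41 to 13.62. The other was *Rpl39*, a very short protein of the tunnel wall, at 7.74 and 7.75. *Rps6*, the protein after which the kinases are named, measured 13.34 and 13.36.

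*Rpl39* and 3 other genes made the dim group. *Rps13* measured 5.80 for experimenter 2 and 5.90 for experimenter 1, *Rpl28* 4.93 and 4.37, and *Rpl30* 3.63 and 3.42. Each of the 4 was read by 1 member probe set, and all were dim on both arrays. For 3 of them the annotation also lists the symbol in probe sets with several symbols, which the rule leaves out and whose signal cannot be assigned to 1 gene. The 1 that lists *Rpl28* measured 12.78 and 12.93, the 1 that lists *Rps13* 12.98 and 12.93, and the 2 that list *Rpl30* 13.19 and 13.08, and 12.51 and 12.64. *Rpl39* was listed in no such probe set.

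The probe sets of a ribosomal protein gene did not agree in level where there was more than 1. A second probe set existed for 4 of the 41 genes. *Rpl14* measured 12.17 and 12.21 by 1387887_at and 4.13 and 4.20 by 1375375_at, for experimenters 2 and 1. *Rps24* measured 7.60 and 7.33 by its second probe set, 1390494_at. *Rpl7*, a large-subunit protein, measured 12.98 and 13.01 by 1398917_at and 7.16 and 7.39 by 1375788_at. *Rpl3*, which lies near the peptidyl transferase centre, measured 13.29 and 13.41 by 1371300_at and 7.67 and 7.68 by 1396049_x_at, an identifier that marks probes shared between transcripts. The second probe set is the one with the lower mean of both arrays, so its being dimmer follows from that choice.

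The gap in mean level between the probe sets was 8.02 for *Rpl14*, 5.94 for *Rps24*, 5.72 for *Rpl7* and 5.68 for *Rpl3*, with a median of 5.83. No detection calls were used, so the dim probe sets are not shown to be above background, and these gaps describe signals only. Among the 4525 genes read by 2 probe sets or more, the median gap between the brightest and the next was 1.4999, with quartiles of 0.64 and 2.77, and 2.56% had a gap as large as that of *Rpl3*. A bright first probe set leaves more room for a gap: over the 67 other genes whose brightest probe set had a mean of 12 or above, the median was 2.12, and 9 of them (13.4%) had a gap as large. The 5 kinase genes with at least 2 probe sets had a median gap of 1.65. Their largest gaps between highest and lowest were 3.90 for *Rps6ka4* and 2.20 for *Rps6ka3*.

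**Figure D2:**
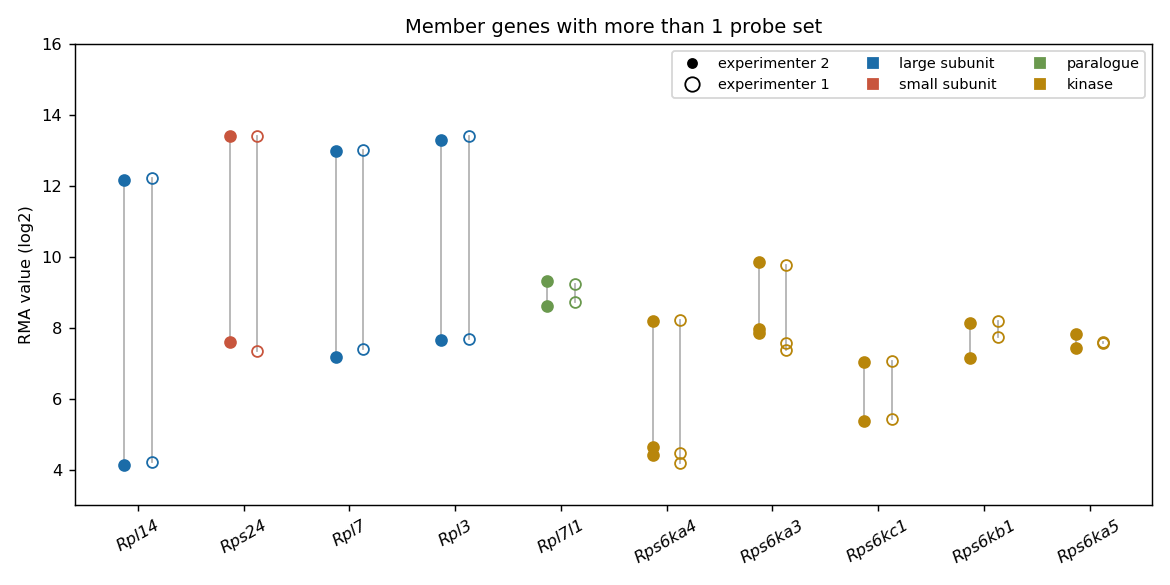
RMA values (log2) of all probe sets of each member gene that has more than 1, joined by a line, with filled points for experimenter 2 and open circles for experimenter 1. The 4 subunit genes on the left have gaps of 5.68 to 8.02, which look alike on both arrays.

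The mean levels of the 41 ribosomal protein genes had an SD of 2.37 over genes on the log2 scale, most of it from the 4 dim genes. For the 37 bright genes the SD was 0.42, but choosing genes of 12 or above narrows any spread: the 159 other single-symbol genes at that level had an SD of 0.55. The scaled median absolute deviation was 0.41 for the 37 and 0.41 for the 159. In the order of signals, 31 of 36 steps between neighbours were smaller than 0.11, the SD over these genes of the difference between arrays. With 37 genes between 12.06 and 14.01 most steps are small in any case. A step is taken between means of both arrays, so 0.11 is not its error, and whether neighbours differ was not tested. The wider order was alike on both arrays, with a Pearson correlation of r = 0.967 and a Spearman rho of 0.963 over the 37 genes, which share 2 arrays and are not replicates.

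Other complexes built largely from equal numbers of subunits had lower median signals than the 12.97 of the 41 ribosomal protein genes. The 73 genes of the mitochondrial ribosome, which makes the proteins encoded in mitochondrial DNA, had a median level of 8.97 and an SD of 0.84. Their values went from 10.36 and 10.73 for *Mrpl17* to 6.62 and 6.86 for *Mrpl38*, for experimenters 2 and 1. The 13 genes of the 20S proteasome core, a protease, had a median of 10.57 with an SD of 0.88, with *Psma6* the brightest (11.68 and 11.70) and *Psma3* the dimmest (8.43 and 8.41). The 8 genes of the CCT chaperonin, which folds actin and tubulin, had a median of 10.54 with an SD of 0.63, between *Cct5* (11.01 and 11.11) and *Cct8* (9.48 and 8.97). Over all 41 genes the levels of the cytosolic ribosome overlapped those of the mitochondrial one, since *Rpl39* was under most of its genes. Medians and SDs describe probe set signals and were not tested against each other.

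**Figure D3:**
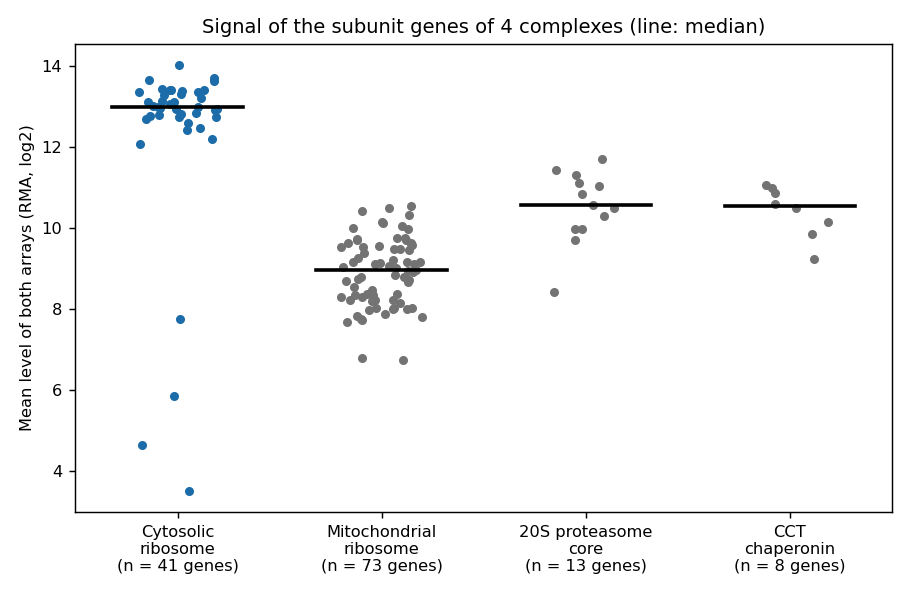
Mean level of both arrays (RMA, log2) of each subunit gene of 4 complexes by its brightest probe set, with a line at each median. The cytosolic ribosome has the highest median, 12.97, and 4 genes far under it.

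Differences between the arrays were small for the ribosomal protein genes. Given as experimenter 2 minus experimenter 1 on the log2 scale, they were centred on a median of -0.0007, with an SD of 0.14 over the 41 genes, with 20 above and 21 under 0. Over all genes the median was -0.049, the SD 0.26 and the share under 0 was 58.7%. A ratio of at least 5 to 4 between the arrays, 0.32 on the log2 scale, was used as the rule of size. By it 1 of 41 genes was higher for experimenter 2 and 0 were lower, where 7.96% of all genes were higher and 10.8% lower. With 1 array per experimenter none of these differences has a replicate error, and no p-value can be given.

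The 1 gene past the rule of size was *Rpl28*, one of the dim genes, at a difference of 0.57. The bright probe set listing *Rpl28* among several symbols was lower for experimenter 2, at 12.78 and 12.93. The next largest positive differences were 0.30 for *Rpl24*, which bridges both subunits, and 0.23 for *Rpl13a*, known in human macrophages for silencing inflammatory mRNAs. After them came 0.21 for *Rpl30*, also a dim gene, 0.18 for *Rpl37a* and 0.16 for *Rpl6*. *Rpl13a* measured 12.96 and 12.73, and *Rpl6* 12.66 and 12.51. The largest negative ones were -0.22 for *Rpl23a* (12.99 and 13.21) and -0.20 for *Rpl35* (13.17 and 13.37), both at the exit tunnel. They were followed by -0.14 for *Rpl4*, -0.13 for *Rpl27a*, -0.13 for *Rps28* (12.72 and 12.85) and -0.12 for *Rpl3*. The differences of the 7 exit tunnel genes ran from -0.22 to -0.0007 and those of the 5S partners were 0.028 and 0.060, where 58.7% of all genes were under 0; the sites were not tested against other genes.

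Among the 37 bright genes the differences ran from -0.22 to 0.30 with an SD of 0.11, and 0 passed the rule of size. Over the 235 other probe sets with means of 12 or above, leaving out those that list a matching symbol among several, the SD was 0.20, 15 were higher and 9 lower by that rule. At the other end, the 24 member probe sets with means under 8, kinases included, had an SD of 0.26, 4 were higher and 1 lower. The 22459 other probe sets under 8 had an SD of 0.29, 1919 higher and 3428 lower. By probe set, 8.28% of all were higher and 13.6% lower past a ratio of 5 to 4.

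**Figure D4:**
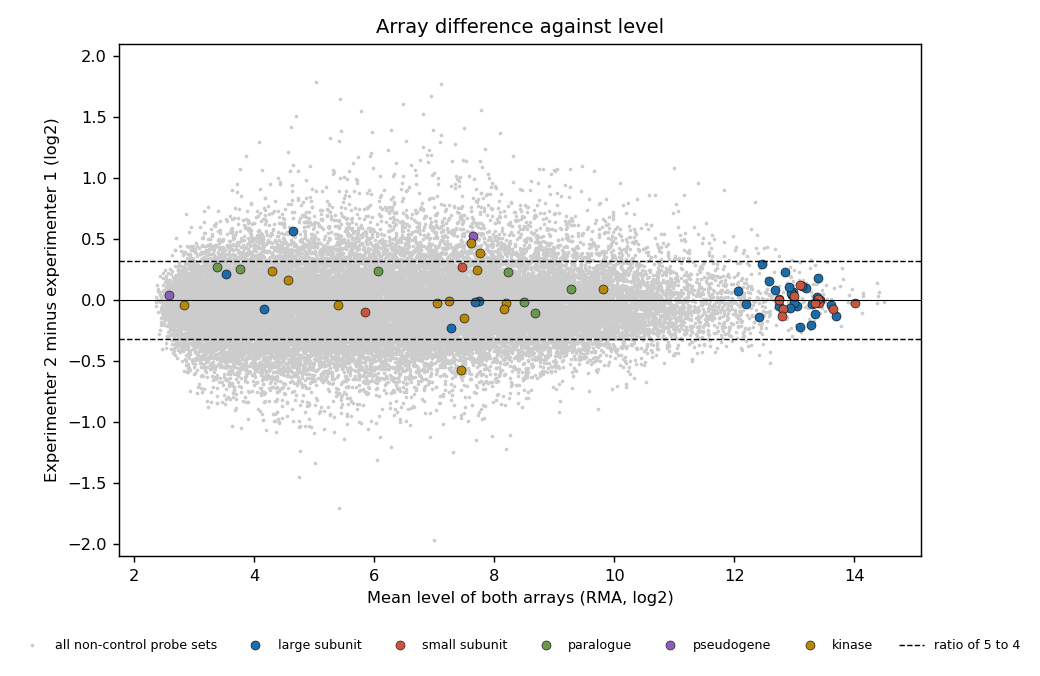
Difference between the arrays (experimenter 2 minus experimenter 1, log2) against the mean level of both (RMA, log2), for all non-control probe sets in grey and members in colour, with dashed lines at a ratio of 5 to 4. The bright subunit genes at the right lie between -0.22 and 0.30, inside the lines, and the members outside the lines have means under 8.

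By brightest probe set, the signals of the paralogues were under those of the subunits they are named after for the 4 whose subunit was also a member. The dimmer probe set of *Rpl7* lay under both of *Rpl7l1*, and probes differ between genes. *Rpl3l*, the relative of *Rpl3* in mouse striated muscle, measured 3.51 for experimenter 2 and 3.24 for experimenter 1. *Rpl26l1*, a close copy of *Rpl26*, measured 6.17 and 5.94, and *Rpl39l1* 3.89 and 3.64. *Rps27l*, a target of p53 in human cells, measured 8.35 and 8.12, *Rps4y2* 8.48 and 8.502, and *Rpl7l1*, a nucleolar factor related to *Rpl7*, 9.32 and 9.23 by the brighter of its probe sets and 8.62 and 8.73 by the other. By brightest probe set 5 of the 6 had differences above 0, up to 0.27, and 0 passed the rule of size. Over all genes 58.7% were under 0, and 7.96% were higher and 10.8% lower by that rule. Counts over 6 genes therefore say little about paralogues. Of the pseudogenes, *Rpl37-ps2* measured 7.91 and 7.39, a difference of 0.52, and *Rps4x-ps1* 2.59 and 2.55.

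The 7 kinase genes had means from 2.82 to 9.81 by their brightest probe sets. *Rps6ka3*, the growth factor-activated kinase RSK2, was the brightest at 9.86 and 9.76, and *Rps6ka6* the dimmest at 2.80 and 2.84. *Rps6kb1*, the S6 kinase downstream of mTOR, measured 8.12 and 8.20 by 1398396_at and 7.15 and 7.73 by 1368116_a_at. Its second probe set thus had the largest difference among the kinase probe sets, -0.58, where the brightest had -0.076. By brightest probe set 2 of 7 kinase genes were above 0, 5 under it, and 0 passed the rule of size. Both other probe sets of *Rps6ka3* passed it, at 0.47 and 0.39, where the brightest had 0.093. By the same rule 7.96% of all genes were higher and 10.8% lower. Of all genes 58.7% were under 0, so counts over 7 genes say little. By probe set 2 of 14 kinase ones were higher and 1 lower, against 8.28% and 13.6% of all non-control probe sets.

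Translation factors, many of whose mRNAs also start with a pyrimidine tract, had a median level of 11.94 over 9 genes. The 9 include *Rack1*, a protein of the small subunit rather than a factor, at 12.48 and 12.54. *Eef1a1*, the elongation factor that brings aminoacyl-tRNA, was the brightest at 13.68 and 13.89, and *Eif4b*, an initiation factor, the dimmest at 9.66 and 9.57. Their median difference was -0.032, and 0 of 9 passed the rule of size. The 12 nucleolar factors, which make ribosomes, had a median level of 8.64 and a median difference of 0.059, with 0 higher and 3 lower past a ratio of 5 to 4, where 7.96% of all genes were higher and 10.8% lower. *Ncl*, nucleolin, was the brightest at 11.13 and 11.01, and *Polr1a*, the largest subunit of RNA polymerase I, the dimmest at 6.62 and 6.64. In the mitochondrial ribosome the median difference was -0.070 and 54 of 73 genes were under 0, against 58.7% of all genes, with 3 higher and 4 lower past a ratio of 5 to 4. The proteasome core had 1 higher and 0 lower at a median of 0.0041, and CCT 1 higher and 0 lower at a median of -0.11, to be read against the same shares of all genes.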

How the data were processed

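The 2 arrays carry log2 RMA values deposited by the authors, made with RMA per the submitters' processing notes. RMA corrects background, gives arrays a common distribution and summarises each probe set. Its version, its annotation and the array set it was run on are not stated in the labels. Base 2 was assumed for the log because the values end at 14.51. The common distribution would hide a difference in total RNA, and no detection calls were used. Of 31099 probe sets 57 were controls; of the others 20826 had 1 gene symbol, 436 several and 9780 none.

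Each gene was read by its brightest probe set, judged by the mean of both arrays. The gene table of rat assembly GRCr8 gave a current symbol for 39 of the 41 ribosomal protein genes (not *Rpl37a* and *Rps9*). No coordinates are given for probes, whose build is not stated. Differences are experimenter 2 minus experimenter 1. With 1 array each, no test was possible and a ratio of at least 5 to 4 (0.32 on the log2 scale) was used; the number of arrays limits the precision. The members and lists were chosen with earlier results of these data known.

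Genes were named by a rule: the 8 brightest and 8 dimmest ribosomal protein genes, up to 6 with the largest differences in each direction, matched genes outside the list, the 6 largest gaps between probe sets, and the brightest and dimmest of each group. *Rps6*, the probe sets with several symbols and the dimmer probe sets of *Rps6kb1* and *Rps6ka3* were added after their values were seen, and so was *Rpl39l1* to the paralogues. *Rack1* was also named outside this rule. Alternatives were median centring, loess (fraction 0.3), quantile normalization, other probe set choices, filters and thresholds. Python 3.11.15, numpy 2.4.6, pandas 2.3.3, statsmodels 0.14.6 and matplotlib 3.10.9 were used, and the computations were tested on simulated data.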

Additional observations from a re-analysis of the deposited data

How the results depend on the processing

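The median difference of the ribosomal protein genes stayed between -0.012 and 0.034 under 11 alternatives, above 0 in 5 and under 0 in 6, so its sign depends on the processing. The count past a ratio of 5 to 4 was 2 after median centring and 2 with every gene the name rule finds. It was 0 without probe sets dimmer than the median of all, 0 at 1.5-fold, 0 at 2-fold and 0 with genes at a mean of 12 or above, and 1 otherwise; lower calls were 0 throughout. The SD of level was 0.48 as a scaled median absolute deviation, 2.48 with the mean over probe sets, 2.82 with each probe set on its own and 0.42 for genes at 12 or above, since the SD rests on the 4 dim genes; this last alternative was chosen after seeing the data. The median gap between probe sets was 5.94 without shared-probe probe sets and 5.72 with both probe sets no dimmer than the median of all, which leave 3 genes each. *Rplp1* and *Rplp2* were no members, so leaving them out changed nothing. No paired analysis was possible because there is a single array per experimenter, so none could be left out either.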

Other observations

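The name rule left out 36 probe sets whose annotation lists a matching symbol among several, most of them names of pseudogenes and copies beside that of a subunit. Their mean levels lay between 5.22 and 13.48, with 13.01 as the median, and 30 of them lay in the upper 1% of the array, 9.68% of it. Their differences between experimenters 2 and 1 had a median of 0.016 with an SD of 0.20, and 5 of 36 were higher for experimenter 2 by a ratio of at least 5 to 4 and 0 lower, where 8.28% of all non-control probe sets were higher and 13.6% lower. None can be assigned to 1 gene.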
